A study of Mus musculus with 2 samples.

Results

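Notch signaling was described through 10 of its genes: the ligands Dll1, Dll4, Jag1 and Jag2, the receptors Notch1, Notch2, Notch3 and Notch4, and the target genes Hes1 and Hey1. They were taken by symbol from the gene list of the count matrices, where all 10 were found among 32285 genes. The data were 2 scRNA-Seq libraries of mouse lung cells made by 3′ counting, 1 of Cebpa fl/fl controls without Cre and 1 of Cebpa ΔSftpc mice, in which a tamoxifen-activated Cre driven by the Sftpc gene was used to delete Cebpa in AT2 cells. Each library pooled 3 mice of mixed background, 3 months old at the start unless stated otherwise, and cells were taken 26 weeks after tamoxifen was begun with 75 mg/kg on 5 consecutive days; weekly injections followed in experiments of this length. The Cre acts in surfactant-producing epithelium, and the vascular, mural and airway classes described here are not the cells in which it is driven. With 1 library for each genotype there was no replicate, so no test of genotype was made, and every interval given here covers counting error only.

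Notch receptors sit on the cell surface and are activated by ligands on a neighboring cell. Ligand binding exposes the receptor to the protease ADAM10 and then to γ-secretase, and the freed intracellular part joins the DNA-binding protein RBPJ to switch on HES and HEY genes, which encode transcriptional repressors. In blood vessels, DLL4 acting on NOTCH1 and NOTCH4 is known for arterial identity and for restraint of sprouting, JAG1 on endothelium signals to NOTCH3 on mural cells, and in airways JAG ligands and HES1 are known for the choice between multiciliated and secretory cells.

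The upstream windows of Dll4 and Dll1 are shown because these ligands led in different endothelial classes, Dll4 in arterial and Dll1 in venous cells. A promoter was matched in RefSeq (GRCm38.p6) for 8 of the 10 genes, all but Hes1 and Hey1, in 9 windows since Dll1 had 2 starts. In the 250 bases before each start, both strands were searched for TGGGAA (core of the RBPJ motif), CACGCG (a HES and HEY site), CACGTG (the E box), CCGGAA (ETS), AACAAT (SOX) and AGGTCA (COUP-TF). CACGCG was found at Dll1, Dll4, Jag1 and Notch2 and in 7.62% of all 32851 promoters of the table, and AGGTCA was found at the inner start of Dll1 and in 14.0% of all. The remaining letters were not in these windows of the 8 genes, and 21.6% of all promoters held TGGGAA, 6.02% CACGTG, 12.03% CCGGAA and 9.42% AACAAT. Capitals mark CACGCG, which lay 195 bases before the start of Dll4 and 68 bases before the outer start of Dll1; Dll4 is on the plus strand at chr2:119325534-119325783 and Dll1 on the minus strand at chr17:15376933-15377182.
Dll4: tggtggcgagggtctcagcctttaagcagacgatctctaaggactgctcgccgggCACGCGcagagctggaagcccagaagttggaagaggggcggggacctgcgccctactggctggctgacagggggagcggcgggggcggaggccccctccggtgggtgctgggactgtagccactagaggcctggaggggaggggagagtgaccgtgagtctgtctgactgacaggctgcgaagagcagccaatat
Dll1: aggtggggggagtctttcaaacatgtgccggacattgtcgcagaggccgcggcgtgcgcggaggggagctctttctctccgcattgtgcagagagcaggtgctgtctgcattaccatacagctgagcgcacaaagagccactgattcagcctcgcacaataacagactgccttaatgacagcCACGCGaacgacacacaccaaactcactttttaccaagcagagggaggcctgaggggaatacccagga

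The Cebpa fl/fl library had 11487 cells after filtering, with a median of 4835 UMIs (unique molecular identifiers, each a counted RNA molecule), and the Cebpa ΔSftpc library had 13238 cells with a median of 2607. Only 45 cell barcodes were shared between the libraries. Cebpa in AT2 cells stood at 152 CPM (a gene's UMIs scaled to the same total of UMIs in every class; 95% counting interval 145 to 160) in Cebpa fl/fl and 113 CPM (96.7 to 131) in Cebpa ΔSftpc. Cebpa was thus lower but still counted in the AT2 cells of Cebpa ΔSftpc, and these counts by themselves do not show its removal. Cells with a UMI of Ptprc, the pan-leukocyte gene, made up 1.73% and 31.5% of the cells. RNA of other cell types was also counted in these classes: in general capillary cells Sftpc, a gene of AT2 cells, was at 936 and 138 CPM. All 10 genes of an immune list, Cd74 among them, were higher there in Cebpa ΔSftpc, with a summed level of 961 and 2015 CPM. The same list summed to 152 and 567 CPM in aerocytes. How much of the general capillary sum came from other cells was not tested.

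Cells were put into classes by raw counts of marker genes, none of them a gene of the Notch list. The classes held 137 and 51 arterial cells (Cebpa fl/fl first, here and below), 4226 and 2147 general capillary cells, 1402 and 1338 aerocytes (the large capillary cells of gas exchange), 383 and 194 venous cells, 119 and 76 lymphatic cells, 228 and 38 pericytes, 179 and 115 smooth muscle cells and 205 and 105 multiciliated airway cells. Airway secretory cells were too few for a ratio, with 12 and 8 cells. The defining markers were found in the arterial, aerocyte and pericyte classes, as the gating itself asks for. Gja5 stood at 328 and 287 CPM in arterial cells against 6.93 and 5.91 CPM in general capillary cells. Ednrb was at 2120 and 1528 CPM in aerocytes against 12.5 and 12.9 CPM in general capillary cells. Cox4i2 was at 3531 and 2700 CPM in pericytes. Because cells were put into classes by counts of such markers, these levels are not an independent check of class identity. Other lists were high beside a class's own markers in several classes. In venous cells the general capillary list was at 4363 and 4037 CPM, beside 11269 and 9267 CPM of the venous list. The airway secretory list was at 5431 and 3855 CPM in multiciliated cells, and the smooth muscle list at 3140 and 2629 CPM in pericytes. In arterial cells the arterial list was at 5107 and 4922 CPM, the venous list at 4901 and 3332 CPM and the mesenchyme list at 8184 and 5304 CPM. In smooth muscle cells Myh11, the smooth muscle myosin, was at 1994 and 3679 CPM and Hhip, a gene of myofibroblast-like cells, at 3268 and 1467 CPM, so Hhip exceeded Myh11 in Cebpa fl/fl. Median depth per cell lay between 4370.5 and 7396 UMIs in the endothelial and mural classes of both libraries and was 16691 and 1872 UMIs in multiciliated cells.

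Dll4, the ligand best known from arteries and sprouting vessels, was graded along the vascular tree. Its level in arterial cells was 293 CPM (95% interval 254 to 336, 203 UMIs) in Cebpa fl/fl and 156 CPM (117 to 204, 54 UMIs) in Cebpa ΔSftpc. General capillary cells followed with 167 CPM (162 to 173) and 130 CPM (124 to 137), then aerocytes with 107 CPM (100 to 113) and 108 CPM (102 to 115), and venous cells were lowest of the blood endothelium with 19.7 CPM (14.8 to 25.8) and 17.8 CPM (11.6 to 26.1). Arterial cells therefore held 14.9-fold (10.9 to 20.5) and 8.79-fold (5.41 to 14.6) more Dll4 than venous cells. The order was the same in both libraries, but in Cebpa ΔSftpc the arterial and general capillary intervals overlapped. Lymphatic cells, at 91.8 CPM (71.0 to 117) and 80.6 CPM (55.1 to 114), overlapped aerocytes, and in both libraries pericytes and multiciliated cells were at 10.9 CPM or lower.

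Dll1, the other Delta ligand of these vessels, had another order, with venous cells first and aerocytes lowest of the blood endothelium. Venous cells had 131 CPM (118 to 146) and 198 CPM (176 to 223), general capillary cells 71.0 CPM (67.4 to 74.7) and 129 CPM (123 to 135), and arterial cells 43.3 CPM (29.2 to 61.8) and 60.8 CPM (37.6 to 92.9). Aerocytes were near the level of non-endothelial cells, with 4.55 CPM (3.31 to 6.11) and 10.0 CPM (8.01 to 12.3). Dll1 thus separated the capillary classes and was 15.6-fold (11.6 to 21.5) and 12.9-fold (10.4 to 16.2) higher in general capillary cells than in aerocytes. Venous cells exceeded general capillary cells in Dll1 by 1.85-fold (1.64 to 2.08) and 1.54-fold (1.35 to 1.74). Pericytes gave 4 UMIs of Dll1 in each library.

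Jag1, the ligand through which endothelium reaches mural cells, was high in multiciliated airway cells and in arterial cells. The few airway secretory cells (12 and 8) had 30.9 CPM (12.4 to 63.7) and 5.73 CPM (1.18 to 16.7). Multiciliated cells had 138 CPM (125 to 150) and 129 CPM (106 to 156), and arterial cells 88.0 CPM (67.3 to 113) and 130 CPM (95.03 to 174). Which of these stood first therefore differed between the libraries, and in Cebpa ΔSftpc their intervals overlapped and multiciliated cells came first in 4 of 6 recomputed orders. General capillary cells had 36.2 CPM (33.7 to 38.9) and 38.1 CPM (34.9 to 41.6), venous cells 44.7 CPM (37.0 to 53.4) and 48.6 CPM (37.9 to 61.3), and aerocytes 9.93 CPM (8.05 to 12.1) and 7.81 CPM (6.07 to 9.90). Aerocytes were thus the lowest endothelial class for Jag1, 8.86-fold (6.32 to 12.3) and 16.7-fold (11.2 to 24.7) under arterial cells. Pericytes had 33.0 CPM (23.0 to 45.9) and 65.6 CPM (33.9 to 115), and smooth muscle cells 31.5 CPM (22.0 to 43.6) and 45.4 CPM (31.2 to 63.7). In Cebpa ΔSftpc the pericyte interval overlapped those of arterial and multiciliated cells.

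Jag2, the second Jagged ligand, did not share that order. It reached 69.8 CPM (61.2 to 79.2) and 81.9 CPM (63.6 to 104) in multiciliated cells, 54.0 CPM (49.5 to 58.8) and 77.1 CPM (71.4 to 83.2) in aerocytes, and 56.3 CPM (40.0 to 76.9) and 72.4 CPM (46.8 to 107) in arterial cells. In Cebpa ΔSftpc these intervals overlapped. In Cebpa fl/fl arterial cells overlapped both others, while multiciliated cells lay above aerocytes. General capillary cells had 43.0 CPM (40.3 to 45.9) and 61.5 CPM (57.3 to 65.8), and overlapped arterial cells in both libraries and multiciliated cells in Cebpa ΔSftpc. Venous cells were low, with 16.4 CPM (11.9 to 22.0) and 19.2 CPM (12.7 to 27.7). The few airway secretory cells (12 and 8) had 57.4 CPM (30.6 to 98.1) and 5.73 CPM (1.18 to 16.7). Against AT2 cells, the alveolar epithelium, multiciliated cells held 11.7-fold (8.71 to 15.9) and 5.08-fold (3.17 to 8.39) more Jag2 and 4.38-fold (3.78 to 5.08) and 4.17-fold (2.94 to 5.99) more Jag1.

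Of the receptors, Notch1 was found in all endothelial classes and in pericytes. Arterial cells had 452 CPM (403 to 505) and 362 CPM (301 to 431), lymphatic cells 342 CPM (301 to 388) and 315 CPM (262 to 375), and pericytes 259 CPM (229 to 292) and 268 CPM (198 to 354). General capillary cells stood at 229 CPM (223 to 236) and 265 CPM (256 to 274), with aerocytes at 190 CPM (182 to 199) and 227 CPM (217 to 238) and venous cells at 196 CPM (180 to 214) and 227 CPM (203 to 253). The capillary and venous levels thus lay within a narrow range, and arterial cells exceeded general capillary cells by 1.97-fold (1.75 to 2.21) and 1.37-fold (1.13 to 1.63). Smooth muscle cells, at 36.7 CPM (26.5 to 49.6) and 72.9 CPM (54.6 to 95.3), and multiciliated cells, at 72.4 CPM (63.7 to 82.0) and 68.6 CPM (52.0 to 88.9), were lower.

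Notch4, a receptor largely restricted to endothelium, was highest in general capillary cells, at 150 CPM (144 to 155) and 139 CPM (132 to 145). Arterial cells overlapped them, with 120 CPM (95.4 to 148) and 116 CPM (82.7 to 158). Venous cells had 82.6 CPM (72.1 to 94.2) and 74.6 CPM (61.2 to 90.0), and aerocytes 69.0 CPM (63.9 to 74.5) and 66.6 CPM (61.3 to 72.3). Notch4 therefore separated the capillary classes by 2.17-fold (1.99 to 2.36) and 2.08-fold (1.89 to 2.29). Lymphatic cells, pericytes, smooth muscle and multiciliated cells were at 32.0 CPM or lower in both libraries.

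Notch3, known as a receptor of mural cells, was highest in pericytes, followed by the smooth muscle class. Pericytes had 983 CPM (924 to 1044) and 1159 CPM (1008 to 1326), and smooth muscle cells had 220 CPM (194 to 249) and 220 CPM (187 to 257). Endothelial and multiciliated classes were all at 8.66 CPM or lower. The step from pericytes to smooth muscle cells was 4.46-fold (3.88 to 5.14) and 5.27-fold (4.27 to 6.51), and from smooth muscle cells to fibroblasts a further 62.0-fold (41.9 to 95.2) and 54.9-fold (30.5 to 108). With each cell thinned to 1000 UMIs, 61.7% and 66.7% of pericytes held a Notch3 UMI (90.4% and 94.7% unthinned), against 0.0720% and 0.156% of aerocytes. Many smooth muscle cells carried Hhip or Aspn, genes of interstitial myofibroblast-like cells: 143 of 179 in Cebpa fl/fl and 55 of 115 in Cebpa ΔSftpc. Smooth muscle cells without them had 232 CPM (159 to 325) and 289 CPM (223 to 368) of Notch3, and those with them 219 CPM (191 to 250) and 189 CPM (153 to 231). Notch3 was thus also counted in the cells with Hhip or Aspn. The part of this mixture in the smooth muscle values was not tested.

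Notch2 was likewise low in blood endothelium and higher in pericytes and the smooth muscle class. Pericytes had 108 CPM (89.4 to 130) and 120 CPM (75.4 to 182), lymphatic cells 61.2 CPM (44.5 to 82.1) and 47.8 CPM (28.8 to 74.7), and smooth muscle cells 42.8 CPM (31.7 to 56.6) and 42.6 CPM (29.0 to 60.5). In general capillary cells it was at 6.22 CPM (5.21 to 7.38) and 10.8 CPM (9.13 to 12.8), 17.4-fold (13.4 to 22.5) and 11.1-fold (6.74 to 17.5) under pericytes. Immune cells had 67.2 and 100.2 CPM of Notch2 and fibroblasts 50.2 and 55.5 CPM, so the smooth muscle level was not particular to mural cells. Notch2 and Notch3 thus led in pericytes, Notch1 in arterial cells and Notch4 in general capillary cells, in both libraries. In Cebpa ΔSftpc the Notch2 interval of pericytes overlapped that of immune cells (95.04 to 105). The arterial interval of Notch1 overlapped that of lymphatic cells there.

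**Figure D1:**
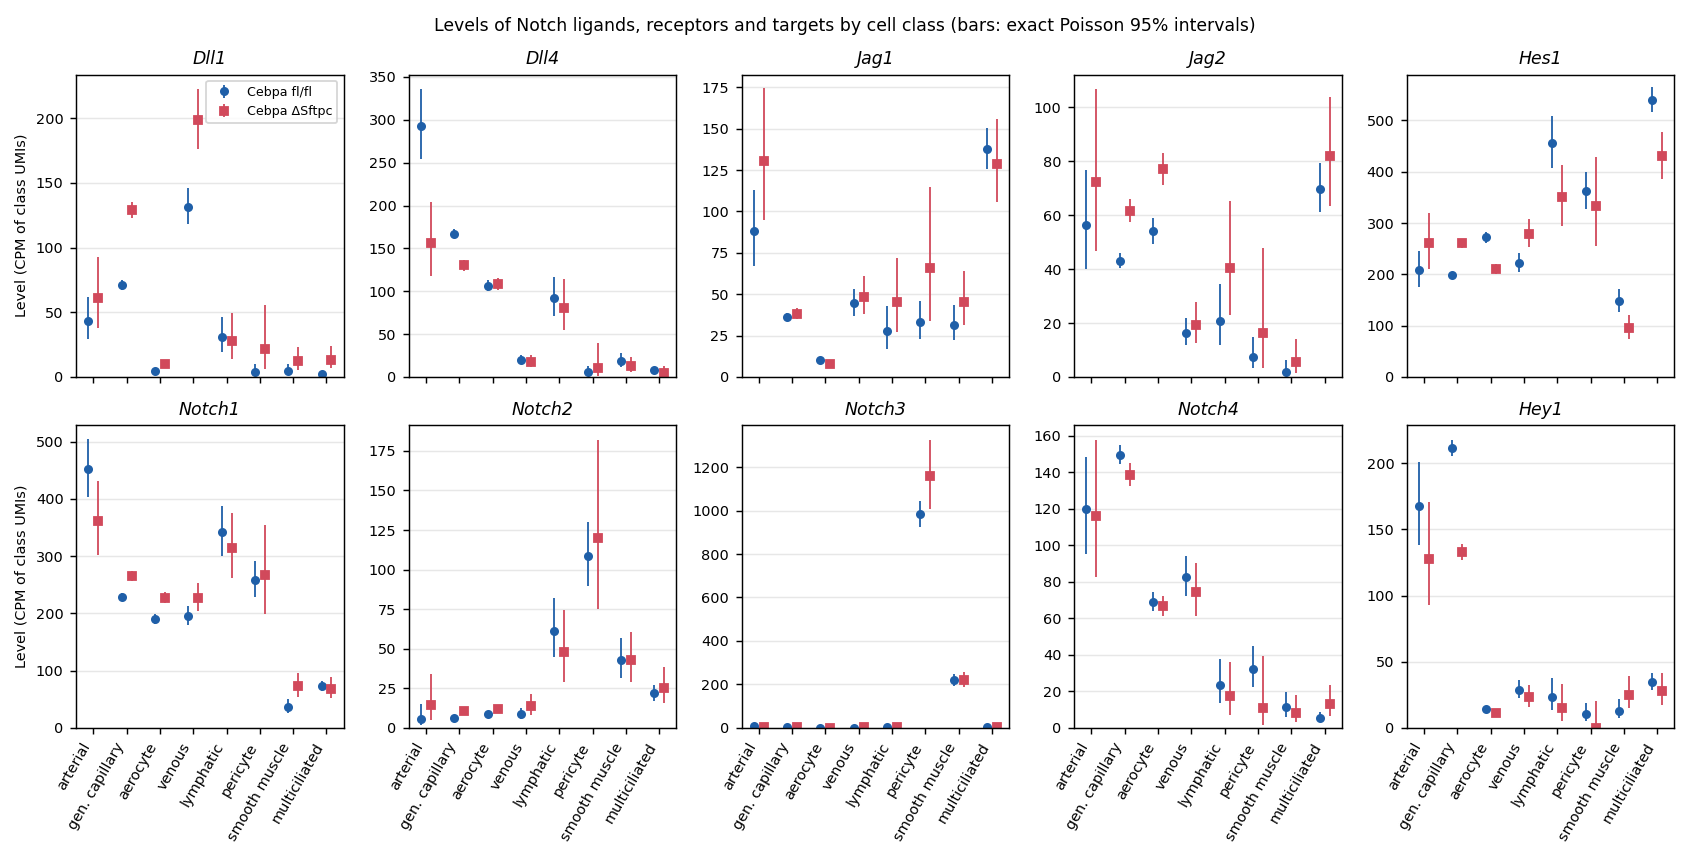
Level of each gene (CPM of the UMIs of a class, linear axis from 0) in 8 cell classes of the Cebpa fl/fl (circles) and Cebpa ΔSftpc (squares) libraries, 1 library each, with exact Poisson 95% intervals as bars. Dll4 falls from arterial (293 and 156 CPM) to venous cells (19.7 and 17.8 CPM) while Dll1 is highest in venous cells (131 and 198 CPM), and Notch3 stands out in pericytes.

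Hey1, a target gene that encodes a transcriptional repressor, was highest in general capillary and arterial cells. It stood at 211 CPM (205 to 218) and 133 CPM (127 to 139) in general capillary cells and at 167 CPM (138 to 201) and 127 CPM (92.6 to 171) in arterial cells. Venous cells had 28.7 CPM (22.6 to 35.8) and 23.3 CPM (16.1 to 32.5), and aerocytes 14.2 CPM (11.9 to 16.8) and 10.9 CPM (8.83 to 13.3). The capillary classes differed in Hey1 by 14.9-fold (12.6 to 17.8) and 12.2-fold (9.90 to 15.1), while the same classes differed in Dll4 by 1.57-fold (1.46 to 1.68) and 1.2-fold (1.11 to 1.3). General capillary cells, 4226 of 8476 and 2147 of 6955 cells put into a class, held 87.7% and 82.5% of the classified Hey1 UMIs. The same cells held 69.7% and 58.3% of the Dll4 UMIs and 32.9% and 40.2% of the Hes1 UMIs. After thinning, 18.9% and 12.97% of general capillary cells had a Hey1 UMI, against 0.866% and 1.52% of fibroblasts.

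Hes1, a target gene used in many cell types, was spread over every class. Multiciliated cells were first with 540 CPM (516 to 565) and 430 CPM (386 to 477), followed by lymphatic cells with 456 CPM (408 to 508) and 350 CPM (294 to 413) and pericytes with 362 CPM (326 to 400) and 333 CPM (255 to 428). In Cebpa ΔSftpc the multiciliated interval overlapped those of lymphatic cells and pericytes. With each cell thinned to 1000 UMIs, 36.3% and 23.7% of multiciliated cells held a Hes1 UMI. Lymphatic cells then had 27.7% and 28.4%, and pericytes 24.8% and 27.8%. By CPM the blood endothelium lay lower and close together in both libraries. In Cebpa ΔSftpc, however, the venous and arterial intervals overlapped those of lymphatic cells and pericytes, and general capillary cells overlapped pericytes. In Cebpa fl/fl aerocytes had 272 CPM (262 to 283) against 199 CPM (193 to 205) in general capillary cells, and in Cebpa ΔSftpc this was turned, with 210 CPM (201 to 220) against 261 CPM (252 to 270). After thinning, 20.6% (18.5 to 22.8) and 18.0% (16.0 to 20.2) of aerocytes held a Hes1 UMI. General capillary cells then had 15.3% (14.2 to 16.4) and 20.5% (18.8 to 22.3). The aerocyte shares thus overlapped between the libraries, and both capillary classes overlapped in Cebpa ΔSftpc. By CPM, aerocytes thus had the lowest Hey1 of the blood endothelium in both libraries, whereas for Hes1 they were the highest of it in Cebpa fl/fl and the lowest in Cebpa ΔSftpc. The few airway secretory cells, in which Scgb1a1 took 44.6% and 50.3% of all UMIs, had 190 CPM (137 to 256) and 195 CPM (159 to 236) of Hes1, and Dll4 gave 0 UMIs in both libraries, with intervals up to 16.3 and 7.04 CPM.

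The libraries were next compared within each class as the log2 ratio of Cebpa ΔSftpc over Cebpa fl/fl. In general capillary cells, 5.54% of the 12831 genes with at least 30 UMIs differed by 2-fold or more and 12.9% by 1.5-fold or more; of the 10 Notch genes, 0 passed 2-fold and 4 passed 1.5-fold, namely Dll1, Notch2, Notch3 and Hey1. Dll1 had the largest ratio, 0.86 (0.76 to 0.96), from 1506 and 1703 UMIs. Notch2 followed with 0.80 (0.45 to 1.15) and Notch3 with 0.77 (0.19 to 1.34), both from low levels, and Notch3 came to 0.10 without the 5% of cells with most UMIs. Hey1 was lower, at -0.67 (-0.75 to -0.59), from 4487 and 1753 UMIs, and so was Dll4 at -0.36 (-0.44 to -0.28). Jag2, at 0.51 (0.38 to 0.65), Hes1, at 0.39 (0.33 to 0.46), and Notch1, at 0.21 (0.15 to 0.27), were higher, Notch4 was close to even at -0.11 (-0.19 to -0.03), and Jag1 had an interval that held 0, at 0.07 (-0.09 to 0.24). The median of the 10 was 0.30 beside -0.02 for all genes, and the 5th and 95th percentiles of all genes were -0.61 and 0.81, so Dll1 and Hey1 were outside that range.

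These ratios moved together with other differences of the same cells. The general capillary marker list was at 10133 and 8378 CPM, with 3 of 8 genes higher in Cebpa ΔSftpc. The arterial list was at 2074 and 2290.5 CPM with only 3 of 8 higher. The venous list was at 953 and 908 CPM although 6 of 9 were higher. The erythroid list was at 72.8 and 224 CPM with 4 of 5 genes higher, and the AT2 list at 1402 and 387 CPM with 1 of 10 higher. Their part in the ratios was not tested. Over the processing alternatives the log2 ratio ran from 0.85 to 0.90 for Dll1, from -0.70 to -0.63 for Hey1, from -0.42 to -0.34 for Dll4 and from 0.33 to 0.43 for Hes1.

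In aerocytes 4.63% of 11475 genes passed 2-fold and 11.2% passed 1.5-fold. Of 9 Notch genes over the minimum 1 passed both, Dll1, with a log2 ratio of 1.13 (0.60 to 1.69) from 44 and 87 UMIs; with only cells of at least 3000 UMIs it did not reach 2-fold. Jag2 was at 0.51 (0.35 to 0.68) and Notch1 at 0.26 (0.17 to 0.35), close to their values in general capillary cells. Hes1 was lower by CPM, at -0.37 (-0.46 to -0.29), the other direction from general capillary cells, while Dll4 was at 0.02 (-0.11 to 0.15) and Notch4 at -0.05 (-0.21 to 0.11). Thinned shares of aerocytes with Hes1 overlapped between the libraries, as given above. The median of the 9 was 0.02 beside 0.03 for all genes. All 10 immune genes were again higher in Cebpa ΔSftpc, with summed levels of 152 and 567 CPM, and their part in these values was not tested.

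In venous cells 2.45% of 9389 genes passed 2-fold and 12.2% passed 1.5-fold. Of 9 Notch genes 0 passed 2-fold and 2 passed 1.5-fold: Notch2, at 0.68 (-0.26 to 1.61) from 23 and 20 UMIs, and Dll1, at 0.60 (0.37 to 0.82) from 353 and 290 UMIs. Dll1 was thus above 0 with its interval in general capillary, aerocyte and venous cells, and its arterial value was 0.49 (-0.39 to 1.34). Its interval held 0 in lymphatic cells, at -0.14 (-1.33 to 0.96), and in AT2 cells, at 0.16 (-1.57 to 1.56). Higher values were not limited to endothelium: with few UMIs, Dll1 was also above 0 with its interval in fibroblasts, at 1.51 (0.67 to 2.35) from 3.17 and 9.02 CPM, in multiciliated cells, at 2.70 (1.20 to 4.31) from 7 and 11 UMIs, and in pericytes, at 2.54 (0.11 to 4.96) from 4 and 4 UMIs. The aerocyte levels of Dll1 lay near those of fibroblasts. Hes1 was at 0.32 (0.14 to 0.51) and Notch1 at 0.21 (0.01 to 0.41), and Dll4, at -0.15 (-0.88 to 0.55), and Hey1, at -0.30 (-0.93 to 0.30), had intervals that held 0. The median of the 9 was 0.21 beside -0.02 for all genes. In the same cells the venous list was at 11269 and 9267 CPM, the AT2 list at 1082 and 258 CPM, the erythroid list at 51.3 and 281 CPM and the immune list at 890 and 1044 CPM with all 10 genes higher, and their part was not tested.

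In arterial cells 5.32% of 5432 genes passed 2-fold and 0 of 8 Notch genes did. Dll4 came nearest, at -0.91 (-1.37 to -0.47), and Notch1 was at -0.32 (-0.63 to -0.02). Hey1, at -0.39 (-0.93 to 0.12), Jag1, at 0.57 (-0.02 to 1.15), and Hes1, at 0.33 (-0.07 to 0.72), had intervals that held 0 with 51 cells in Cebpa ΔSftpc. The median of the 8 was 0.14 beside -0.04 for all genes. Hey1 came to -0.08 when 1 more marker was asked of each cell. The mesenchyme and venous lists were lower in sum in the arterial cells of Cebpa ΔSftpc, as given above. By gene, however, 6 of 9 mesenchyme and 5 of 9 venous genes were higher there. The arterial marker Bmx was at 905 and 541 CPM. The platelet list was at 17.3 and 249 CPM, the erythroid list at 53.4 and 530 CPM, the immune list at 297 and 788 CPM with 9 of 10 genes higher and the AT2 list at 1348 and 295 CPM. Their part in the values of Dll4 and Notch1 was not tested.

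Among the other classes, lymphatic cells had 5.03% of 5967 genes and 0 of 7 Notch genes past 2-fold, pericytes 7.97% of 6201 and 0 of 6, smooth muscle cells 7.05% of 7617 and 0 of 7, and multiciliated cells 4.53% of 10077 and 1 of 8. The 1 in multiciliated cells was Notch4, at 1.26 (0.04 to 2.41) from 19 and 11 UMIs, or 5.52 and 13.2 CPM, beside 6.07 and 5.80 CPM in AT2 cells. By CPM, Hes1 was lower in 3 of these classes, at -0.38 (-0.68 to -0.09) in lymphatic, -0.64 (-1.06 to -0.23) in smooth muscle and -0.33 (-0.50 to -0.16) in multiciliated cells. It stood at -0.12 (-0.53 to 0.28) in pericytes. Thinned shares of cells with Hes1 were not lower in lymphatic cells (27.7% and 28.4%) or smooth muscle cells (9.71% and 10%). In multiciliated cells these shares were 36.3% (29.7 to 43.3) and 23.7% (15.5 to 33.6), with overlapping intervals. Notch3 was at 0.24 (0.02 to 0.45) in pericytes and at 0.00 (-0.30 to 0.29) in smooth muscle cells, and Notch1 at 0.99 (0.38 to 1.61) in smooth muscle cells. In pericytes Jag1 was at 0.99 (-0.09 to 1.97) and Notch4 at -0.97 (-3.31 to 0.70), from 38 cells in Cebpa ΔSftpc. In smooth muscle cells the share with Hhip or Aspn differed between libraries as given above. There all 10 genes of the endothelium list were higher in Cebpa ΔSftpc, at 979 and 1801 CPM, with the immune list at 122 and 627 CPM and an estimated 2.90% and 11.4% of UMIs from free RNA, taken from the surfactant transcripts Sftpc, Sftpb and Sftpa1. In multiciliated cells the median depth differed, and 9 of 10 endothelium genes were higher, at 767 and 962 CPM, with the mesenchyme list at 184 and 777 CPM, the smooth muscle list at 15.1 and 145 CPM, the erythroid list at 34.3 and 499 CPM and the immune list at 186 and 778 CPM. The immune list was likewise at 163 and 627 CPM in lymphatic cells and at 167 and 629 CPM in pericytes. The part of these differences in the ratios was not tested.

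**Figure D2:**
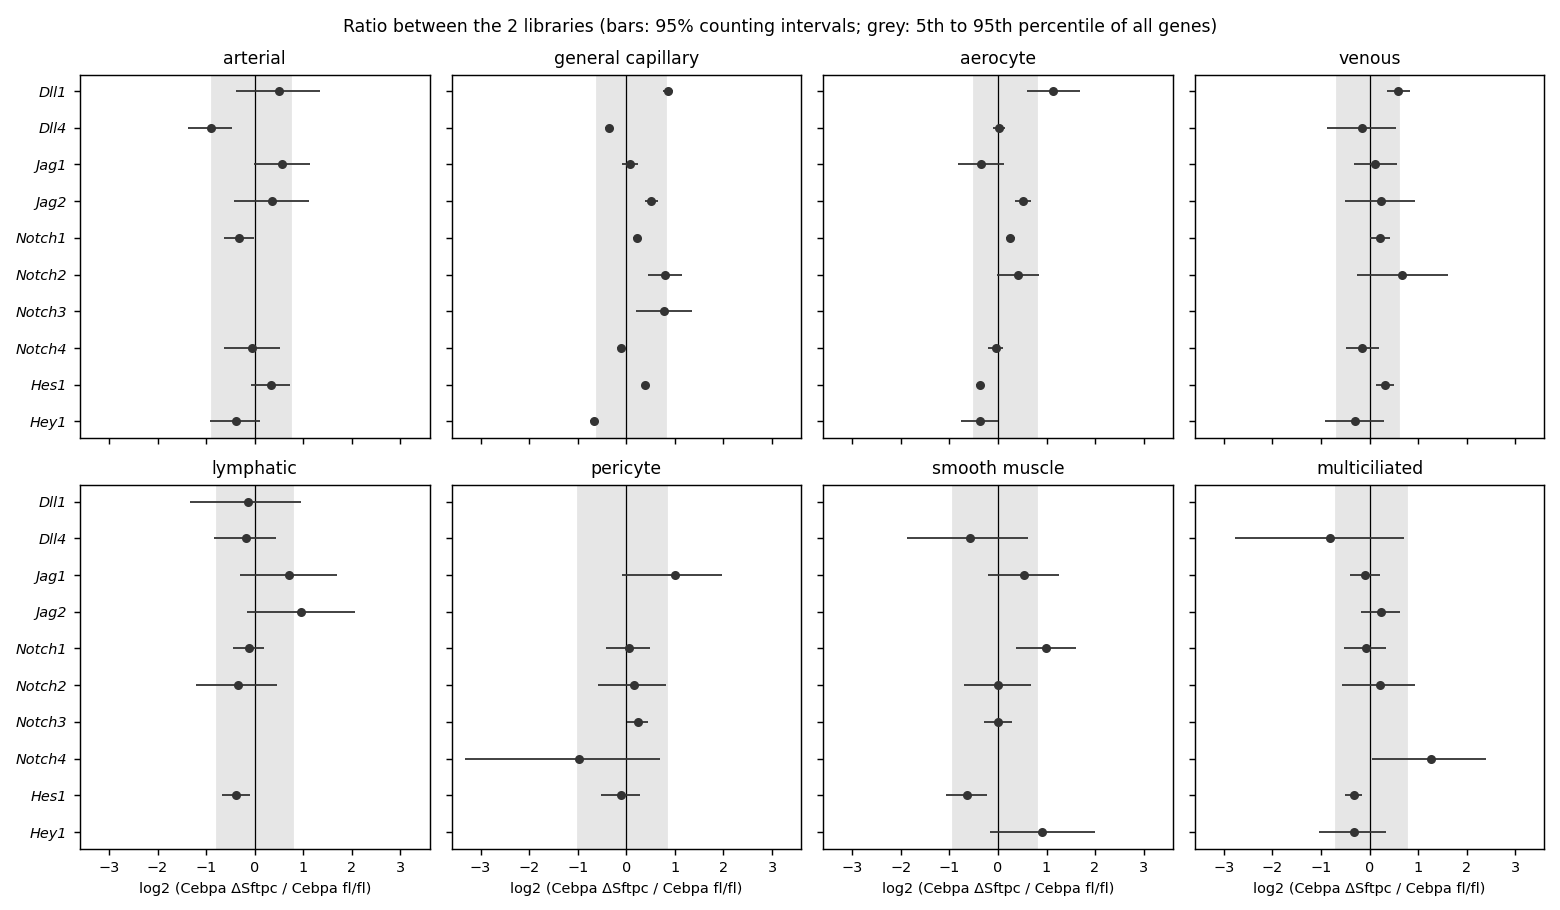
Log2 ratio of Cebpa ΔSftpc over Cebpa fl/fl (x axis) for each Notch gene with at least 30 UMIs, in 8 cell classes, with 95% counting intervals as bars and the 5th to 95th percentile of all genes in grey. In general capillary cells Dll1 (0.86) lies to the right and Hey1 (-0.67) to the left of 0, and Hes1 lies on opposite sides in general capillary cells (0.39) and aerocytes (-0.37). The share of aerocytes with a Hes1 UMI after thinning overlapped between the libraries.

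Whether the genes went together within a cell was described in general capillary cells, each thinned to 1000 UMIs, which left 4206 and 2128 cells and left out 20 and 19 shallow ones. Dll4 was found in 16.8% (14.3 to 19.6) of Cebpa fl/fl cells with a Hey1 UMI and in 15.2% (14.0 to 16.4) of those without, and in Cebpa ΔSftpc in 15.9% (11.8 to 20.8) and 10.9% (9.52 to 12.4). At 2000 UMIs the exact intervals separated in both libraries, with 30.9% (28.4 to 33.6) against 26.05% (24.4 to 27.7) and 28.2% (24.0 to 32.6) against 19.6% (17.7 to 21.7). Cells with Hey1 thus more often held Dll4 at the greater depth, by a few percentage points.

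For Dll1 the intervals overlapped at both depths. At 2000 UMIs it was found in 12.6% (10.8 to 14.6) of Cebpa fl/fl cells with Hey1 and 12.4% (11.2 to 13.7) without, and in 15.8% (12.5 to 19.5) and 20.8% (18.8 to 22.9) in Cebpa ΔSftpc. At 1000 UMIs it was found in 6.78% (5.14 to 8.76) and 6.45% (5.65 to 7.33) in Cebpa fl/fl, and in 10.9% (7.45 to 15.2) and 11.45% (10.03 to 12.99) in Cebpa ΔSftpc. Dll4 and Dll1 were not tested against each other. At 1000 UMIs Notch1 was found in 24.0% (21.1 to 27.1) of Cebpa fl/fl cells with Hey1 and 18.9% (17.6 to 20.3) without, and in Cebpa ΔSftpc in 25.0% (20.003 to 30.5) and 23.8% (21.8 to 25.8); at 2000 UMIs its intervals overlapped in both libraries. At 1000 UMIs Hes1 was found in 12.6% (10.1 to 15.4) of Cebpa fl/fl cells with Dll4 and 15.8% (14.6 to 17.1) without, and in 22.0% (16.9 to 27.6) and 20.3% (18.5 to 22.2) in Cebpa ΔSftpc. Without thinning, where cells differ in depth, each of these first genes was found more often in cells with the second gene in both libraries; Dll4 then was in 54.2% of Cebpa fl/fl cells with Hey1 and 40.0% without.

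**Figure D3:**
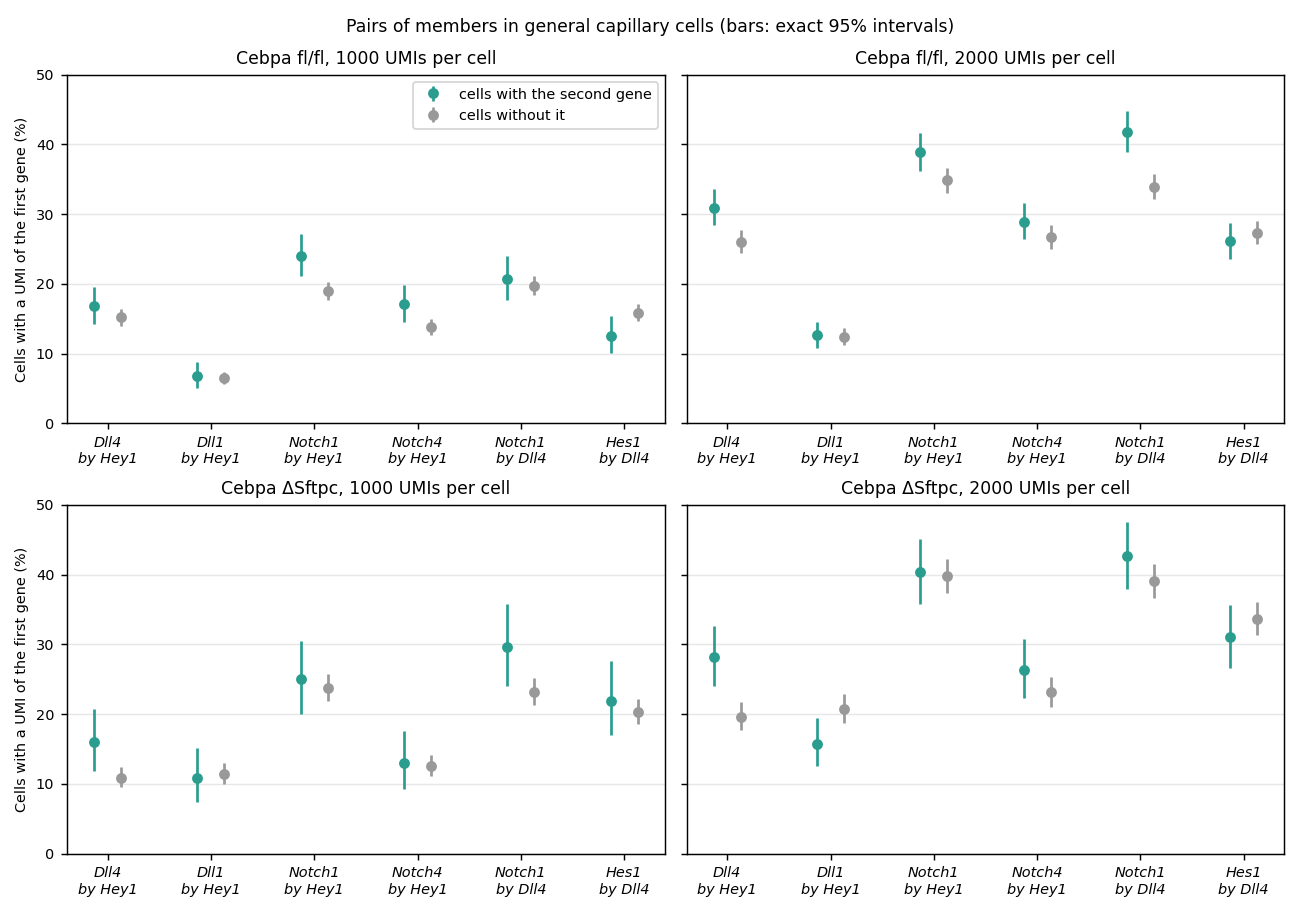
Share of general capillary cells with a UMI of the first gene (y axis, percent) among cells with (green) and without (grey) a UMI of the second gene, at 1000 and 2000 UMIs per cell in each library, with exact Clopper-Pearson 95% intervals as bars. The Dll4 and Hey1 pair separates at 2000 UMIs in both libraries (30.9% against 26.05% and 28.2% against 19.6%), and at 2000 UMIs Dll1 and Hey1 do not separate in either (12.6% against 12.4% and 15.8% against 20.8%).

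The other genes of the pathway were taken from a list of 51, covering further ligands, glycosyltransferases, proteases, ligand endocytosis, nuclear factors, repressors, turnover and further targets. The Fringe enzymes, which modify the receptors and change their response to ligands, differed by class: Mfng stood at 164 and 172 CPM in aerocytes against 62.5 and 65.2 CPM in general capillary cells, whereas Lfng was at 67.8 and 65.8 CPM and at 53.5 and 58.5 CPM. Nrarp, a target and feedback inhibitor, was at 199 and 168 CPM in arterial cells, 204 and 230 CPM in pericytes and 15.2 and 12.3 CPM in aerocytes. Hey2 and Heyl led in different classes of the vessel wall. Hey2 was at 162 and 81.1 CPM in arterial cells and 2.31 and 2.80 CPM in general capillary cells. It was also counted in pericytes, at 53.7 and 16.4 CPM from 57 and 3 UMIs. Heyl was at 239 and 197 CPM in pericytes and 114 and 140 CPM in smooth muscle cells. Psen2, a catalytic subunit of γ-secretase, was at 567 and 171 CPM in arterial cells, its highest class in both libraries. Dtx1, a ligase of the Deltex family, was at 171 and 108 CPM in lymphatic cells and at 0.724 CPM or lower in the other endothelial classes, and Hes6 was at 122 and 118 CPM in multiciliated cells.

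Between the libraries, the list was close to the background in the capillary classes. In general capillary cells 0 of 43 genes over the minimum passed 2-fold, beside 5.54% of all genes, with a median log2 ratio of 0.02; the lowest named values were those of Cir1 (-0.56, -0.66 to -0.46) and Tle1 (-0.49, -0.59 to -0.38), both corepressors. The highest was another corepressor, Tle3, at 0.96 (0.64 to 1.29), the only one of the 43 past 1.5-fold. In aerocytes 0 of 40 passed, beside 4.63% of all genes, with Neurl3, a Neuralized-type ligase, at 0.99 (0.75 to 1.23) and Tle1 at -0.60 (-0.80 to -0.40). Venous cells had 1 of 37 past 2-fold, beside 2.45% of all genes. It was Tle3, at 1.03 (0.04 to 2.03), and Numb, a Notch inhibitor, was at 0.45 (0.24 to 0.67). Rbpj, the DNA-binding partner of all 4 receptors, was at 65.7 and 57.2 CPM in general capillary cells and 66.1 and 67.9 CPM in aerocytes.

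In arterial cells 2 of 29 passed 2-fold: Psen2, at -1.73 (-2.15 to -1.33) from 393 and 59 UMIs, and Neurl3, at 1.15 (0.18 to 2.12). Hey2 was just under 2-fold lower, with an interval of the log2 ratio from -1.65 to -0.39. In pericytes 6 of 31 passed, 4 of them higher (Ncstn, Numb, Dtx4 and Aak1, each from 18 or fewer UMIs in Cebpa ΔSftpc) and 2 lower, of which Hey2, at -1.71 (-4.03 to -0.09), had an interval outside 0. Lymphatic cells had 1 of 27 (Aph1b, at -1.03, -2.04 to -0.12), smooth muscle cells 1 of 35 (Psen2, at 1.29, 0.58 to 2.01) and multiciliated cells 2 of 37 (Neurl3, at 1.64, 0.75 to 2.50, and Poglut1, at -1.76, -4.09 to -0.11). The pericyte count rests on 38 cells in Cebpa ΔSftpc, and 7.97% of all genes passed the same fold there. Of all genes 5.32% passed it in arterial, 5.03% in lymphatic, 7.05% in smooth muscle and 4.53% in multiciliated cells. The 1 or 2 genes of the list in each of these 4 classes were near those shares.

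**Figure D4:**
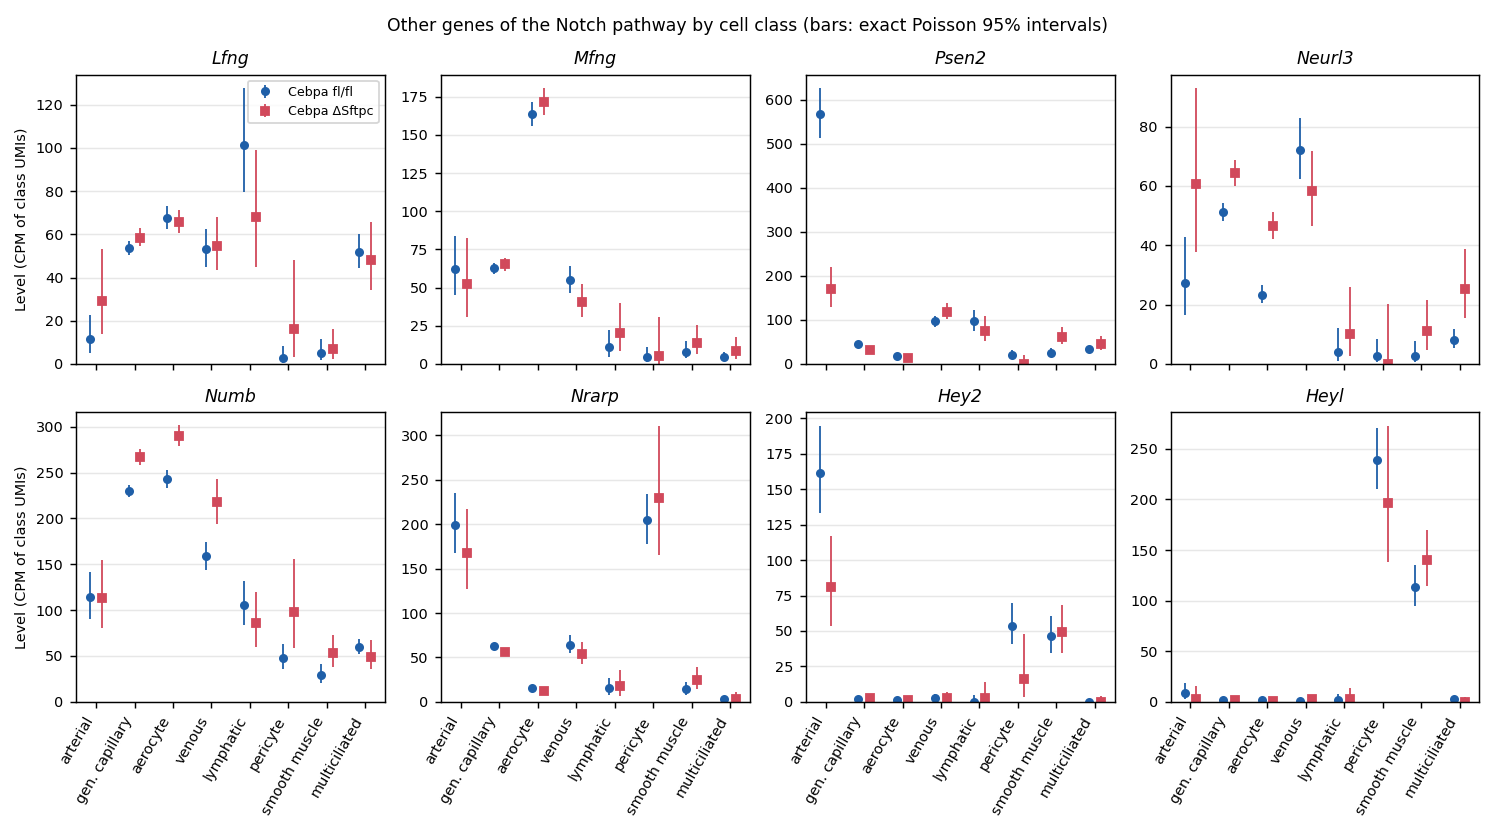
Level (CPM of the UMIs of a class, linear axis from 0) of 8 other pathway genes in 8 cell classes of the Cebpa fl/fl (circles) and Cebpa ΔSftpc (squares) libraries, with exact Poisson 95% intervals as bars. Psen2 (567 and 171 CPM) and Hey2 (162 and 81.1 CPM) are highest in arterial cells, Mfng in aerocytes and Heyl in pericytes.

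The genes whose class profile was most like that of each Notch gene were found by Pearson correlation of log2(CPM + 10) over 22 profiles, 11 classes in each library, among 6924 genes; classes of 1 library share free RNA and depth, so the values are descriptions. Dll4 was nearest to Efna1 (r = 0.92) and Efnb2 (0.92), both ephrins, of which Efnb2 is a textbook arterial gene, and then to Kif26a (0.90). Hey1 was nearest to Sema3g (0.93), Tox3 (0.89) and Edn1 (0.89, endothelin), Dll1 to Grrp1 (0.97), Cemip2 (0.97) and Cd93 (0.96), and Notch4 to Clec14a (0.96) and Flt1 (0.94, a VEGF receptor). Notch3 was nearest to Kcnk3 (0.98), a potassium channel, and Notch1 to Dock6 (0.91).

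In general capillary cells the log2 ratio of the neighbors was in part like and in part unlike that of the Notch gene. The profiles used to pick them include the general capillary levels of both libraries, so some likeness of the ratios is built in. Efna1 was at -0.57 (-0.67 to -0.47) and Efnb2 at -0.35 (-0.40 to -0.30), beside -0.36 for Dll4, but Kif26a was at 0.18 (0.05 to 0.31). Sema3g was at -0.35 (-0.40 to -0.30), Tox3 at -0.40 (-0.51 to -0.29) and Edn1 at -0.02 (-0.08 to 0.03), beside -0.67 for Hey1. Grrp1 was at 0.73 (0.64 to 0.81), beside 0.86 for Dll1, but Cemip2 was at 0.09 (0.05 to 0.13) and Cd93 at -0.07 (-0.10 to -0.04). Clec14a was at -0.61 (-0.64 to -0.58) and Flt1 at 0.03 (-0.001 to 0.06), beside -0.11 for Notch4. Kcnk3 was at 1.30 (0.71 to 1.91), beside 0.77 for Notch3. The next neighbors of Notch3 had few UMIs: Atp1b2 (r = 0.97) was at 0.03 (-1.57 to 1.53) and Trarg1 (r = 0.97) at -1.12 (-3.18 to 0.55). Dock6 was at 0.05 (-0.05 to 0.14), beside 0.21 for Notch1. The neighbors of Hes1 were all below 0, Csnk2a2 at -0.14, Ctbp2 at -0.07 (-0.19 to 0.05) and Polr2i at -0.30, beside 0.39 for Hes1. For Jag2, Enpp4 was at -0.18, Ocln at -0.26 and Scn3b at 0.99, beside 0.51. For Notch2, Diaph2 was at 0.96, Limd1 at 0.25 and Irf8 at 2.63, beside 0.80. For Jag1, Arhgap5 was at 0.20, Tsc22d1 at -0.24 and Golgb1 at -0.03, beside 0.07. Among the Notch genes themselves the closest pair of class profiles was Notch4 with Dll4 (r = 0.80), while Dll4 with Hey1 had r = 0.72 and Dll4 with Dll1 r = 0.50.

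All 10 genes had a position in GENCODE M21 (GRCm38): Dll1 at chr17:15367354-15376872, Dll4 at chr2:119325784-119335962, Jag1 at chr2:137081456-137116644, Jag2 at chr12:112907819-112929776, Notch1 at chr2:26457903-26516663, Notch2 at chr3:98013527-98150361, Notch3 at chr17:32120820-32166852, Notch4 at chr17:34564268-34588503, Hes1 at chr16:30064384-30067796 and Hey1 at chr3:8663359-8667256. Notch1, Notch3 and Dll4 overlapped genes on the other strand, and none overlapped a counted gene on its own strand.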

How the data were processed

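The values deposited by the authors were unnormalized UMI counts (whole numbers), which Cell Ranger gave on mm10 (version 6.1.1 per the labels, 5.0.0 per the file headers). Labels speak of sorted live cells and the methods of whole-lung suspensions. Cells under 200 genes or above 20% mitochondrial UMIs were dropped. Classes were set by marker counts: most ask for 3 or more distinct markers and few UMIs of other types. No doublet caller was run. Cells that met the gates of no class or of several classes were left out, and 73.8% and 52.5% of cells entered a class. The gates limit UMIs of other cell types but do not exclude them, so cells of mixed content can remain in a class. Summed counts per class and library were divided by the class's UMIs (CPM), with exact Poisson 95% intervals. Ratios had sums below 3 counts set to 3 and an exact conditional binomial interval; ratios asked for 20 cells per library. The background was all genes with at least 30 UMIs over both libraries. Shares were taken after thinning each cell to 1000 UMIs. The ratio and its interval were tested on simulated counts. The versions were Python 3.11.15, scipy 1.17.1, numpy 2.4.6, pandas 2.3.3 and matplotlib 3.10.9. The genes named were the 10 members, up to 20 other pathway genes with at least 50 CPM in a class in both libraries (31 genes) or past 2-fold with an interval outside 0, and up to 3 genes per member most alike in class profile; which of these are named was decided after their values were seen. The members, markers and lists were chosen with earlier results of these data known. The alternatives are given in the closing section.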

Additional observations from a re-analysis of the deposited data

Results flagged for a closer look

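Some Notch genes had counting intervals on opposite sides of 0 in different classes, which marked them for a closer look; the difference between classes was not tested, since each genotype had 1 library. By CPM, Hes1 was higher in Cebpa ΔSftpc in general capillary and venous cells and lower in aerocytes, lymphatic, smooth muscle and multiciliated cells. Thinned shares of cells with Hes1 had intervals that overlapped between the libraries in all of these classes except general capillary cells. The log2 ratio of Hes1 in general capillary cells exceeded that in aerocytes by 0.76, in lymphatic cells by 0.77, in smooth muscle cells by 1.03 and in multiciliated cells by 0.72. The value in venous cells exceeded these by 0.70, 0.71, 0.96 and 0.65. Notch1 was lower in Cebpa ΔSftpc in arterial cells, and its ratio there was exceeded by 0.53 in general capillary cells, by 0.58 in aerocytes, by 0.53 in venous cells and by 1.31 in smooth muscle cells. The ratio of Notch4 in multiciliated cells exceeded that in general capillary cells by 1.37, from 19 and 11 UMIs in multiciliated cells.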

How the results depend on the processing

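No paired analysis was possible because each genotype had 1 library. Of 512 log2 ratios of Notch genes recomputed under the alternatives, 502 stayed within their counting interval, 10 moved outside it and 0 of those with an interval outside 0 changed direction. Of 924 levels, 872 stayed within their interval. Counts of genes past 2-fold moved more, and the cause was not tested. The share of all genes past 2-fold, by class, ran from 3.83% (venous) to 21.4% (multiciliated) with each cell weighing the same, from 0.54% to 3.30% with at least 100 UMIs asked of a gene, and from 2.38% to 8.17% under the other alternatives, a comparison added after seeing the data. With each cell weighing the same, the Notch genes past 2-fold were 1 in general capillary cells, 3 in aerocytes, 1 in lymphatic cells, 2 in pericytes, 3 in smooth muscle and 2 in multiciliated cells, where 6.71%, 8.72%, 9.95%, 14.0%, 14.4% and 21.4% of all genes passed, and the other pathway genes 4 in arterial, 1 in general capillary, 1 in aerocyte, 3 in lymphatic, 5 in smooth muscle and 8 in multiciliated cells. In arterial cells 7.09% of all genes passed under this setting. With 1 more marker asked of a cell, 1 Notch gene passed in pericytes and 0 in multiciliated cells, and 1 other pathway gene in each of arterial, general capillary and aerocyte cells and 0 in lymphatic cells. The shares of all genes in these classes, in that order, were 7.88%, 4.61%, 5.6%, 5.29%, 4.02% and 5.66%. Without the 5% of cells with most UMIs, 1 Notch gene passed in smooth muscle and 0 in multiciliated cells, and 4 other pathway genes in arterial cells, 2 in aerocytes, 0 in venous cells and 3 in pericytes. All-gene shares were 7.74%, 6.09%, 6.19%, 4.56%, 2.49% and 8.17% in that order. With at least 100 UMIs asked of a gene, 0 Notch genes passed in multiciliated cells, and 1 other pathway gene in arterial cells and 0 in venous, lymphatic, pericyte, smooth muscle and multiciliated cells. Fewer genes are then counted. From arterial to multiciliated cells in that order, 2.09%, 0.54%, 2.09%, 2.74%, 3.3% and 1.23% of all genes passed. With cells of at least 3000 UMIs, 0 Notch genes passed in aerocytes, and 2 other pathway genes in aerocytes, 3 in pericytes and 0 in smooth muscle cells. Beside these, 3.92%, 7.79% and 7.3% of all genes passed in the 3 classes. With free RNA subtracted, 1 Notch gene passed in general capillary cells, 1 in pericytes and 0 in multiciliated cells, beside 4.6%, 8.11% and 4.79% of all genes. Without the most abundant genes in the total, and likewise relative to the median gene, 1 passed in pericytes and 1 in smooth muscle cells. Under both settings 7.81% of all genes passed in pericytes, and in smooth muscle cells 7.06% and 7.1%. With cells under 500 genes or above 10% mitochondrial UMIs left out, 1 passed in smooth muscle cells and 2 in multiciliated cells, beside 7.11% and 5.19% of all genes. At 1.5-fold, chosen after seeing the data, 4 passed in general capillary cells and 2 in venous cells, beside 12.9% and 12.2% of all genes. The class with the highest level of a Notch gene stayed first in 113 of 120 recomputed orders. The 7 exceptions were all in Cebpa ΔSftpc: Jag1 in 4 of 6 (multiciliated in place of arterial cells), and 1 each for Jag2 (aerocytes), Hes1 (pericytes) and Hey1 (arterial cells). Few cells limit the arterial and pericyte values of Cebpa ΔSftpc (51 and 38 cells) and the airway secretory class (12 and 8 cells).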

Other observations

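The Notch genes were also measured in classes used only for comparison. In immune cells Notch2 was at 67.2 CPM (51.2 to 86.4) in Cebpa fl/fl and 100.2 CPM (95.04 to 105) in Cebpa ΔSftpc, from 129 and 2288 cells, and Notch1 was at 29.1 CPM (19.0 to 42.6) and 81.2 CPM (76.6 to 86.0). Immune cells held 71.3% of the Notch2 UMIs of all classified cells in Cebpa ΔSftpc and 4.70% in Cebpa fl/fl. Fibroblasts had 50.2 CPM (45.4 to 55.4) and 55.5 CPM (47.4 to 64.6) of Notch2 and 179 CPM (170 to 189) and 154 CPM (140 to 168) of Hes1. In AT2 cells, where the Cre is driven, Hes1 was at 90.9 CPM (84.9 to 97.3) and 112 CPM (96.1 to 130) and Jag2 at 5.96 CPM (4.50 to 7.74) and 16.1 CPM (10.4 to 23.8), with a median depth of 21323 and 2760 UMIs per cell. AT1 cells had 258 CPM (213 to 308) of Hes1 in Cebpa fl/fl and 193 CPM (103 to 330) from 18 cells in Cebpa ΔSftpc.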
